A study of Oryctolagus cuniculus with 4 samples.

Results

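CHI3L1 spots were the capture spots of the muscle section taken 2 weeks after tenotomy in which at least 1 CHI3L1 molecule (UMI) was counted. They numbered 132 of the 854 spots under tissue in this section (15.5%, exact binomial 95% interval 13.1 to 18.1) and of the 6970 spots in the series. They were compared with the 691 spots of the same section that had 0 CHI3L1 UMIs and 500 or more UMIs in all. The 31 spots with neither CHI3L1 nor 500 UMIs were left out. The spots were chosen by their CHI3L1 count, so CHI3L1's own values are given as a description only. The series held 1 Visium section of supraspinatus muscle for each of 4 conditions, all from skeletally mature female New Zealand White rabbits. The 2-week and 16-week sections came from tenotomized muscle, and 1 healthy section came from muscle stored, like both of these, for 6 years. The other healthy section came from fresh muscle. By their sample names, the 16-week and the stored healthy sections came from opposite sides of 1 animal, and the 2-week section came from another animal. Each comparison of CHI3L1 spots with other spots is therefore within 1 section of 1 animal. Contrasts between sections are between single sections.

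CHI3L1 encodes chitinase-3-like protein 1 (YKL-40), a secreted glycoprotein that binds chitin but lacks chitinase activity. Macrophages, neutrophils, chondrocytes, synovial cells and vascular smooth muscle cells are known to make it, and it is known as a marker of inflammation and tissue remodeling. Tenotomy, the cutting of the tendon, unloads the muscle, and torn rotator cuff muscles are known to gain fat and connective tissue. A Visium spot captures RNA from several neighboring cells, so a gene counted beside CHI3L1 need not come from the same cell, and more cells of a type cannot be told apart from more RNA per cell.

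Most CHI3L1 spots held a single molecule. CHI3L1 had 290 UMIs in all: 91 spots had 1 UMI, 21 had 2 and 20 had 3 or more. The 9 spots with 8 to 23 UMIs held 117 UMIs (40.3%). Just inside the rule thus lay 91 spots with 1 UMI, and just outside it 722 spots with 0. CHI3L1 spots were somewhat deeper than the others, with a median of 5023.5 against 4589 UMIs and 908.5 against 815 genes per spot. The share of spots with CHI3L1 was 7.88% in the shallowest of 5 equal groups of spots (interval 4.26 to 13.1) and 20% in the deepest (14.2 to 26.9), so detection moved with depth. At an equal depth of 1000 UMIs the medians were 334 and 318 genes. Mitochondrial genes took a median of 31.2% of the UMIs in CHI3L1 spots and 33.5% in the others, and 22.6% in the 20 spots with 3 or more CHI3L1 UMIs. Whether depth contributed to the differences below was examined by weighting the other spots to the depth of the CHI3L1 spots, which gave 247 genes past the fold upward and 44 downward, against 236 and 38 without weights. Thinning every spot to 1000 UMIs gave 422 and 195 of the same 1905 genes, which were chosen by their UMIs before thinning. Thinned genes had fewer UMIs and larger counting error, so these counts cannot separate depth from that error. Thinning moved 23 of 58 named ratios beyond their unthinned counting intervals and turned 2 more. The log2 ratio of ADAM8 was 1.27 after thinning against 2.06 before.

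**Figure D1:**
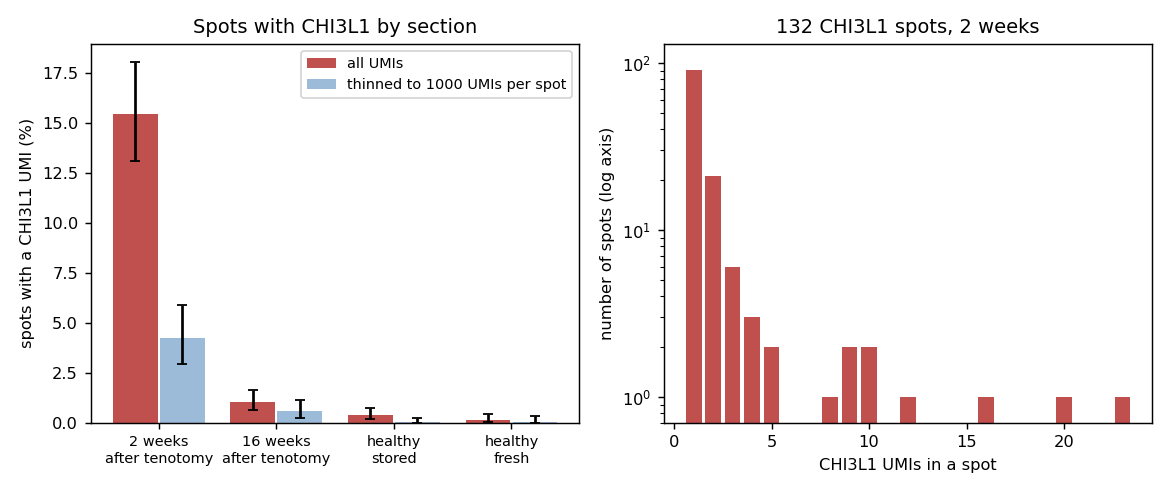
Left, the share of spots with at least 1 CHI3L1 UMI in each section (percent, bars), before and after each spot was thinned to 1000 UMIs, with exact binomial 95% intervals. Right, the number of 2-week spots (log axis) by their number of CHI3L1 UMIs. The 2-week share was 15.5% and those of the other sections were 1.04% or less, and 91 of the 132 spots had 1 UMI.

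CHI3L1 spots overlapped in part with spots rich in COL1A1, the gene of a chain of type I collagen. Of the 132 CHI3L1 spots, 35 (26.5%) had 5 or more COL1A1 UMIs, against 85 of the 691 other spots (12.3%). These 35 were 29.2% of all 120 COL1A1-rich spots. The overlap was larger where CHI3L1 was abundant: 11 of the 20 spots with 3 or more CHI3L1 UMIs were COL1A1-rich, and 16 of the 91 with 1 UMI. Each comparison was therefore repeated without COL1A1-rich spots, which left 97 CHI3L1 spots and 606 others. In this repeat COL1A1 is a selector too.

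Genes were compared by their summed UMIs relative to the total of each group of spots, as a log2 ratio of CHI3L1 spots to other spots with 0.5 UMI added. With 1 section, spots are not replicates, and no test or p-value was possible. The intervals given are exact 95% intervals for counting error alone, and "past the fold" means a ratio of at least 1.5 in either direction. Of 1905 genes with 100 or more UMIs, 236 were past the fold upward in CHI3L1 spots (12.4%) and 38 downward (1.99%), with a median log2 ratio of 0.09. Without COL1A1-rich spots, 82 of 1601 genes were past the fold upward (5.12%) and 48 downward (3%), with a median of 0.03. Of the genes compared both times, 157 were past the fold upward with COL1A1-rich spots, 82 without them and 61 in both. Of the 15 named genes with the highest lower bounds, 12 were past the fold in the repeat too, and SFRP2 and COL1A2 were not. COL1A1, which chose the spots left out, is not counted.

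**Figure D2:**
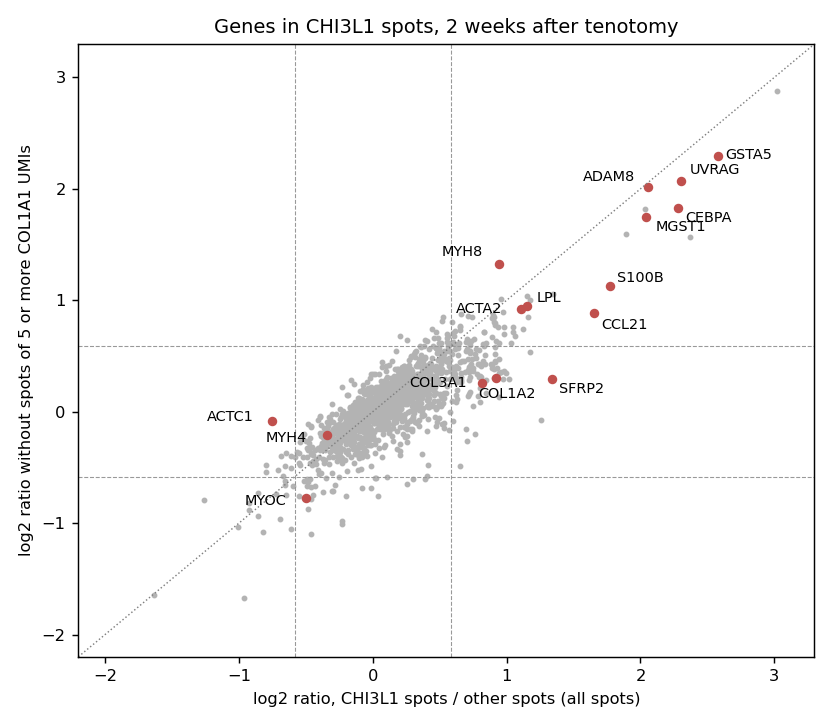
Log2 ratio of CHI3L1 to other spots for each gene (points), with all spots (x axis) and without spots of 5 or more COL1A1 UMIs (y axis). Dashed lines mark 1.5-fold, the dotted line equality, and named genes are red. The pairs of values were 2.58 and 2.30 for GSTA5, 2.06 and 2.02 for ADAM8, 2.28 and 1.83 for CEBPA, 1.34 and 0.30 for SFRP2, 0.92 and 0.30 for COL1A2 and 0.82 and 0.26 for COL3A1.

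Among genes with a symbol, GSTA5, a glutathione S-transferase of the alpha class, had the highest lower bound of the ratio. It was at 0 in 70 of the 132 CHI3L1 spots and reached 21 UMIs in a spot. In the other spots it was at 0 in 553 of 691, and the highest spot had 6 UMIs. Its level was 3.77 per 10000 UMIs in CHI3L1 spots and 0.631 in the others, a log2 ratio of 2.58 (2.32 to 2.85), and 2.30 without COL1A1-rich spots. Alpha-class transferases have near-identical copies, so molecules may be divided among them. CEBPA, a transcription factor of adipocyte differentiation, had 97 UMIs in CHI3L1 spots, 9 of them in 1 spot, against 92 UMIs in the others and at most 3 in a spot. Its log2 ratio was 2.28 (1.86 to 2.71), and 1.83 without COL1A1-rich spots.

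LPL encodes lipoprotein lipase, which frees fatty acids from circulating fat. Its median was 4 UMIs in CHI3L1 spots, where the highest spot had 57, and 2 UMIs in the others, where the highest had 18. The ranges overlapped widely, and the summed levels were 11.3 against 5.09 per 10000 UMIs, a log2 ratio of 1.16 (1.03 to 1.28) that was 0.95 without COL1A1-rich spots. MGST1, a microsomal glutathione transferase, had a ratio of 2.04 (1.75 in the repeat). S100B, a calcium-binding protein of Schwann cells and adipocytes, had 1.77 (1.13 in the repeat). In spots with exactly 1 CHI3L1 UMI the ratio of LPL was 0.33 and that of S100B 0.53, both within the fold. Without spots of 3 or more GSTA5 UMIs they were 0.32 and 0.43, and without COL1A1-rich spots as well 0.26 and -0.0047. The values for ITIH5, a secreted hyaluronan-binding protein, were 1.35 and 1.06 in the repeat, and those for CYB5A, cytochrome b5, were 1.16 and 1.04. Without spots of 3 or more GSTA5 UMIs, ITIH5 had 1.185 and CYB5A 0.52, the latter within the fold.

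Of 12 adipocyte markers, 7 have a feature of that name and 2 had enough UMIs to be compared, LPL and SNCG. Both were past the fold, beside 12.4% of all genes (median 1.22, against 0.09 over all genes). SNCG, gamma-synuclein, had a log2 ratio of 1.28, which fell below the fold at 0.48 without COL1A1-rich spots. The rarer markers were below the minimum of 100 UMIs. PPARG, the central regulator of adipocyte differentiation, had 26 UMIs in CHI3L1 spots and 23 in the others, or 0.359 and 0.0687 per 10000 UMIs (log2 ratio 2.38, interval 1.52 to 3.26). CIDEA, a lipid droplet protein, had 16 and 11 UMIs (log2 ratio 2.73, with a lower bound of 1.55). CD36, a fatty acid transporter, had 15 and 42 UMIs, with an interval that included equal levels (-0.23 to 1.60). The defining marker ADIPOQ (adiponectin) had 1 UMI in each group and LEP (leptin) had 0, so the spots cannot be called adipose from these markers. ADIPOQ also had few UMIs at 16 weeks, 43 over the whole section, where CIDEA had 343.

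UVRAG, a regulator of autophagy and endosome transport, had a log2 ratio of 2.30 (1.95 to 2.65). The ratio of UVRAG was 2.07 without COL1A1-rich spots and 0.98 without spots of 3 or more GSTA5 UMIs. ADAM8, a membrane metalloprotease known from leukocytes, had at least 1 UMI in 74 of 132 CHI3L1 spots and 222 of 691 others. Its highest spots had 30 and 18 UMIs, and its levels were 4.53 and 1.09 per 10000 UMIs. The log2 ratio of ADAM8 was 2.06, and 2.02 without COL1A1-rich spots. Of the features that carry an identifier without a gene name, 2 were chosen after their values were seen. ENSOCUG00000001375 had 679 UMIs in CHI3L1 spots and 387 in the more numerous other spots, or 9.38 against 1.16 per 10000, a log2 ratio of 3.02 (2.84 to 3.20) and 2.88 in the repeat. ENSOCUG00000007445 had 723 and 815 UMIs (2.04, and 1.82 in the repeat).

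Of 10 compared collagen and fibroblast genes, 9 were past the fold upward (median 0.86), beside 12.4% of all genes. In the repeat 0 of 8 were (median 0.30), beside 5.12% of all genes, but the repeat left out spots by a collagen gene of this list, so nothing is read from that count. COL1A2, the other chain of type I collagen, had a median of 16 UMIs in CHI3L1 spots and 10 in the others, and levels of 60.4 and 31.95 per 10000 UMIs (log2 ratio 0.92, then 0.30). COL3A1, type III collagen, had levels of 96.9 and 55.1 (0.82, then 0.26), and FN1, fibronectin, 13.6 and 7.57 (0.85, then 0.28). DCN, the small proteoglycan decorin, was the exception below the fold at 0.51. SFRP2, a secreted modulator of Wnt signaling, had a ratio of 1.34, and 188 of its 639 UMIs in CHI3L1 spots (29.4%) came from 1 spot. Among the tendon and cartilage genes, KERA, the proteoglycan keratocan, was past the fold with and without COL1A1-rich spots (1.16 and 0.85), and 1 of 2 compared members of this list was. COL4A2, a basement membrane collagen, had levels of 9.83 and 4.77 per 10000 UMIs and stayed past the fold in the repeat (0.72). Its ratio was 0.52 without spots of 3 or more COL1A1 UMIs and 0.40 with exactly 1 CHI3L1 UMI, both within the fold.

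Of 14 macrophage markers with a feature, 3 could be compared, and 2 were past the fold, beside 12.4% of all genes. These were CSF1R, the receptor for the growth factor of macrophages, at 1.02, and STAB1, a scavenger receptor, at 1.26. Without COL1A1-rich spots 0 of 2 were, beside 5.12% of all genes, and STAB1 stood at -0.07. AIF1, a calcium-binding protein of macrophages, had a ratio of 0.45. The other 11 markers had too few UMIs. Of these, CD14 had the most UMIs, 18 in CHI3L1 spots and 77 in the others (0.14, interval -0.72 to 0.87, and -0.28 in the repeat). CD68, a lysosomal protein of macrophages, had 23 and 65 (0.73, -0.04 to 1.42). The complement gene C1QC had 18 and 68 (0.32, -0.55 to 1.06, and -0.54 in the repeat), and C1QB 13 and 32 (0.94, -0.15 to 1.88). CD163, a scavenger receptor of tissue macrophages, had 0 and 8. The summed level of the list was 3.84 against 2.20 per 10000 UMIs. All 5 compared genes of the lipid-associated macrophage list were past the fold (median 0.99), beside 12.4% of all genes. In the repeat 2 of 5 were, LPL and the fatty acid-binding protein gene FABP5 (1.06, then 0.68). The other 3 were the protease genes CTSK (0.99, then 0.35) and CTSB (0.72, then 0.36) and LGALS3, galectin-3 (0.85, then 0.17). Below the minimum, members of this list pointed both ways, with intervals that included equal levels. PLIN2 had 13 UMIs in CHI3L1 spots and 79 in the others (-0.35, -1.37 to 0.46, and -0.90 in the repeat). SPP1 (osteopontin) had 2 and 18 (-0.68, -4.11 to 1.10), and GPNMB 1 and 12 (-0.85, -6.79 to 1.38). CD36, also on this list, had 0.75 (-0.23 to 1.60).

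Of 4 compared lysosome genes 3 were past the fold, the proteases LGMN (0.94) and CTSB (0.72) and the progranulin gene GRN (0.71), and 0 of 3 in the repeat. The lists in this paragraph have 2 to 5 compared genes each. Of all genes, 12.4% were past the fold upward, and 5.12% in the repeat. CTSB and CTSK are also on the lipid-associated macrophage list. Of the matrix proteases and inhibitors, 3 of 5 were past the fold, namely the collagen-degrading protease CTSK (0.99), ADAMTS1 (0.89) and the inhibitor TIMP1 (0.75). ADAMTS1, which cleaves proteoglycans, was the 1 of 4 still past it in the repeat, at 0.85. Both compared complement genes, C1R (0.91) and SERPING1 (0.80), were past the fold, and 0 of 2 in the repeat. CD74, the invariant chain of antigen presentation, had a log2 ratio of 0.65 with COL1A1-rich spots and -0.49 without them. The value without them came from 22 UMIs in CHI3L1 spots, with an interval of -1.23 to 0.13. That interval included equal levels, so the excess of CD74 was lost but a deficit was not shown.

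ACTA2, smooth muscle actin, had levels of 4.47 and 2.08 per 10000 UMIs (log2 ratio 1.10, and 0.92 in the repeat), with 60 of its 324 UMIs in 1 CHI3L1 spot. CALD1 (caldesmon) had 0.70 and 0.62, and MYH11, smooth muscle myosin, 0.62 and 0.72. LMOD1, leiomodin, had 0.15 and -0.15, so 3 of 4 compared vessel wall genes were past the fold both times. Of all genes, 12.4% were past it upward, and 5.12% in the repeat. MYH11 lay close to the fold with all spots, and CALD1 in the repeat. VWF, the von Willebrand factor of endothelium, had 0.79 and then 0.56, just under the fold. CCL21, a chemokine of lymphatic endothelium, had a ratio of 1.65 and 0.88, but 94 of the 132 CHI3L1 spots had 0 UMIs of it, and 1 spot held 51 of the 189. Without spots of 3 or more GSTA5 UMIs the ratio of CCL21 was 0.56, within the fold.

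Muscle fiber genes differed little in the sums over all CHI3L1 spots. None of the 6 fast fiber, 8 slow fiber, 8 mechanical stress and Z-disc, 7 glycolysis, 26 nuclear respiratory chain or 26 mitochondrially encoded genes compared was past the fold in either direction (0 of each list). Of all genes, 12.4% were past the fold upward and 1.99% downward. In the repeat, 1 of 25 mitochondrially encoded genes was past it, downward, beside 3% of all genes. The medians of these lists ran from -0.16 for the slow fiber and mitochondrial lists to -0.06 for the respiratory chain list. The 12 cytosolic ribosomal protein genes were also within the fold, with a median of 0.24. MYH4, the type 2b myosin heavy chain, had 32.7 per 10000 UMIs in CHI3L1 spots and 41.5 in the others (log2 ratio -0.34, interval -0.41 to -0.28). MYL3, a slow myosin light chain, had -0.26, and STRIT1, a small activator of the calcium pump, -0.28. Spots with 3 or more CHI3L1 UMIs had 19.6 per 10000 UMIs of MYH4 and 14.4 of MYL3, against 41.5 and 32.5 in spots with 0.

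Of the 10 named genes with the clearest deficit, 6 were past the fold downward, and 4 of these stayed so in the repeat: EIF3J, a translation initiation subunit (-1.26, then -0.79), PDLIM5, a Z-disc protein (-1.01, then -1.03), the co-chaperone DNAJC21 (-0.93, then -0.88) and UBA2, a sumoylation enzyme (-0.86, then -0.94). Each of these 4 had 19 or fewer UMIs in CHI3L1 spots, and their intervals were wide (-2.36 to -0.43 for EIF3J). ACTC1, the actin of heart and of immature muscle fibers, had 138 UMIs in CHI3L1 spots and 1076 in the others (-0.75), but -0.08 without COL1A1-rich spots. MYOC (myocilin) was within the fold at -0.50 and past it at -0.77 in the repeat. MYH8, the neonatal myosin, had a ratio of 0.95, but 151 of its 286 UMIs in CHI3L1 spots lay in 1 spot. Without that spot its log2 ratio was -0.07. In the repeat MYH8 had 1.33 (1.06 to 1.59) from 172 UMIs in CHI3L1 spots. The spot with 151 of them had 2 COL1A1 UMIs and was still included there. Of the 4 compared genes of the regenerating fiber list, MYH8 was past the fold upward, and ACTC1 and MYL4, an embryonic myosin light chain (-1.003), downward. Of all genes, 12.4% were past the fold upward and 1.99% downward. MYL4 had 11 UMIs in CHI3L1 spots and a ratio of 0.15 without COL1A1-rich spots.

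Several lists that bear on CHI3L1 itself were too rare to compare. The UMIs given for them are raw counts, and the other spots held far more UMIs in all than the CHI3L1 spots. Of its own family, CHIT1, the chitinase of macrophages, had 1 UMI in CHI3L1 spots and 0 in the others, CTBS, which breaks down chitobiose in the lysosome, had 6 and 5, and CHI3L2 had 0 in both. Of the proteins reported to bind it, LGALS3 (galectin-3) could be compared and had a log2 ratio of 0.85, and 0.17 in the repeat. CD44, the hyaluronan receptor, had 16 and 37 UMIs (log2 ratio 1.02, 0.05 to 1.88), and a ratio of 0.62 (-0.90 to 1.80) in the repeat. IL13RA2, an interleukin 13 receptor chain, had 2 and 18 UMIs. The neutrophil markers S100A9 and S100A8 had 9 and 6 UMIs in CHI3L1 spots and 21 and 9 in the others. Their log2 ratios were 1.03 (-0.32 to 2.17) and 1.66 (-0.15 to 3.28), so both intervals included equal levels. MPO (myeloperoxidase) had 0 UMIs in both. PTPRC, the pan-leukocyte gene CD45, had 1 and 10 UMIs (log2 ratio -0.60, -6.55 to 1.70). CORO1A, on the lymphocyte and plasma cell list like PTPRC, pointed the other way, with 21 and 42 UMIs (1.22, 0.38 to 2.00). In the repeat CORO1A had 0.61, with an interval that included equal levels. JCHAIN, of the same list, had 2 and 26 UMIs, and its interval also included equal levels. None of the 7 lymphocyte and plasma cell, 5 satellite cell or 9 denervation genes with a feature could be compared (0 of each list). NFKBIA, an early target of NF-kB and the 1 gene of the acute phase list that could be compared, had 0.08.

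Of the 15 named genes with the highest lower bounds, 13 had a higher level in each class of spots with more CHI3L1 UMIs. They were chosen on these same spots, so this is a description. GSTA5 had 0.631 per 10000 UMIs in spots with 0 CHI3L1 UMIs, 1.42 in spots with 1, 3.49 with 2 and 14.3 with 3 or more. For ADAM8 the levels in the same order were 1.09, 1.74, 4.41 and 16.8, for CEBPA 0.275, 0.560, 1.47 and 4.61, and for LPL 5.09, 6.41, 12.3 and 31.8. The intervals of spots with 0 and with 1 CHI3L1 UMI did not overlap for GSTA5, ADAM8, CEBPA and LPL. With exactly 1 CHI3L1 UMI the log2 ratios were 1.18 for GSTA5, 1.04 for CEBPA, 0.68 for ADAM8 and 0.33 for LPL. In this setting 9 of the 15 were past the fold upward, beside 80 of all 1790 genes compared. The 15 were ranked on sums that include these spots. COL1A2 showed the same order with smaller steps (31.95, 41.2, 64.0 and 141). The levels of ITIH5 (0.478, 0.979, 0.643 and 2.78) and CYB5A (0.956, 1.54, 1.38 and 5.39) were in no steady order. CIDEA had 12 of its 16 UMIs in the spots with 3 or more. In spots with 3 or more, the myosin heavy chains MYH1 (fast 2x) and MYH7 (slow) had 317 and 37.2 per 10000 UMIs, against 472 and 78.9 in spots with 0. MYH4 (41.5, 32.1, 48.97 and 19.6) and MYL3 (32.5, 28.3, 34.8 and 14.4) were in no steady order.

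**Figure D3:**
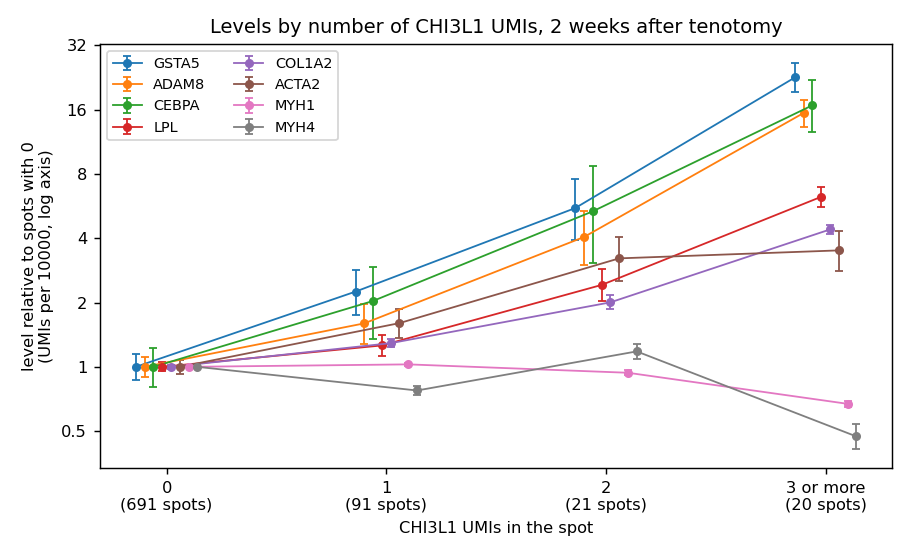
Level of 8 genes (UMIs per 10000, relative to spots with 0 CHI3L1 UMIs, log axis) by the number of CHI3L1 UMIs in the spot. Points are summed over spots, and bars are exact Poisson 95% intervals divided by the level at 0. GSTA5, CEBPA and ADAM8 climbed most, LPL, COL1A2 and ACTA2 less, and MYH1 and MYH4 ended below 1.

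The richest CHI3L1 spots were not all alike, though the contrast rests on 1 spot of 9. Of the 9 spots with 8 or more CHI3L1 UMIs, 8 had 6 to 21 GSTA5 UMIs, 3 to 9 of CEBPA, 15 to 57 of LPL and 18 to 60 of ENSOCUG00000001375. The remaining spot, with 12 CHI3L1 UMIs, had 0 UMIs of GSTA5, CEBPA and ADAM8 and 2 of LPL, but 138 of COL1A1, 607 of COL1A2 and 188 of SFRP2. Of the 8 spots rich in GSTA5, 5 were COL1A1-rich as well, so the 2 traits were not exclusive. GSTA5, CEBPA and LPL were named for their excess in these same spots, so their counts here are a description only. Of all 132 CHI3L1 spots, 25 had 3 or more GSTA5 UMIs (18.9%), against 15 of the 691 others (2.17%). COL1A1-rich spots made up 12 of these 25. A further 23 CHI3L1 spots were COL1A1-rich without 3 GSTA5 UMIs. The 84 spots that were neither (63.6%) held 103 CHI3L1 UMIs, mostly 1 each, since 70 of the 91 spots with a single UMI were among them. The 12 spots that were both held 94.

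**Figure D4:**
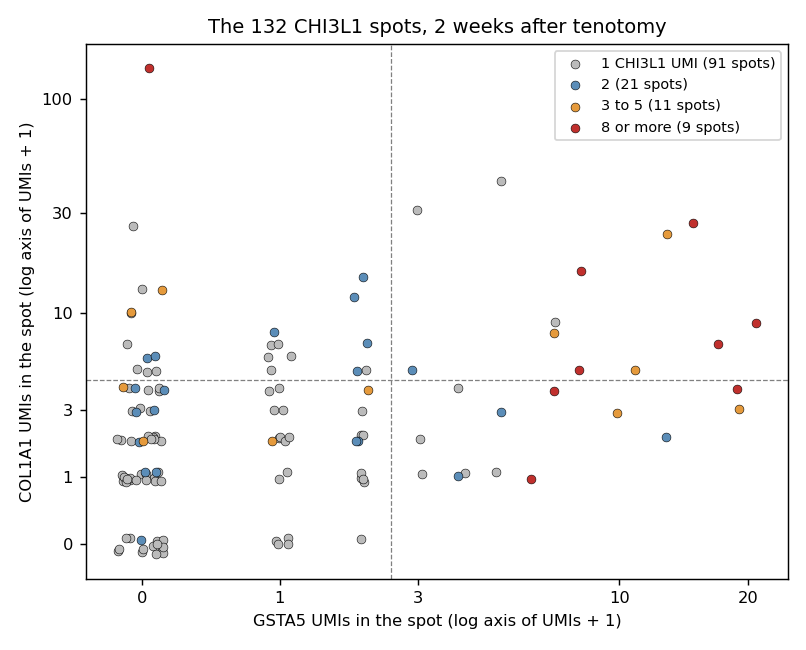
GSTA5 UMIs (x axis) and COL1A1 UMIs (y axis) in each of the 132 CHI3L1 spots (points, spread at random by a small amount, log axes of UMIs plus 1), colored by CHI3L1 UMIs. Dashed lines separate spots with 3 or more GSTA5 and 5 or more COL1A1 UMIs. Of the 9 spots with 8 or more CHI3L1 UMIs, 8 lie to the right, and 5 of these 8 also lie above the COL1A1 line. The other 1 lies at 0 GSTA5 and 138 COL1A1 UMIs.

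CHI3L1 was rare in the other sections. It had 25 UMIs in 18 of 1726 spots at 16 weeks (1.04%, interval 0.619 to 1.64), 11 UMIs in 10 of 2440 stored healthy spots (0.410%) and 3 UMIs in 3 of 1950 fresh healthy spots (0.154%). Per 10000 UMIs this was 0.711 at 2 weeks, 0.0527 at 16 weeks, 0.00877 in stored and 0.00427 in fresh healthy muscle. The intervals of the 2 healthy sections overlapped. After thinning to 1000 UMIs per spot, 4.24% of the 2-week spots, 0.582% of the 16-week spots, 0.0426% of the stored and 0.0594% of the fresh healthy spots had CHI3L1, so the healthy sections changed places with 1 spot each. These are differences between single sections, and tenotomy, animal and section cannot be told apart.

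Of the 15 named genes, 12 had a higher level over the whole section at 16 weeks than at 2 weeks, and 3 a lower one. The share of all genes higher at 16 weeks was not computed, so nothing particular to these genes is read from that count. GSTA5 had 1.19 per 10000 UMIs in the whole 2-week section and 4.67 at 16 weeks. For ENSOCUG00000001375 the levels were 2.62 and 15.002, for CEBPA 0.463 and 2.84, for LPL 6.19 and 12.6 and for CIDEA 0.0662 and 0.723. ADAM8 had 1.70 and 1.84. The lower levels at 16 weeks were those of SFRP2 (4.43 and 2.02), COL1A1 (5.26 and 1.41) and COL1A2 (37.0 and 17.8). Over all spots, the share with CHI3L1 was 15.5% at 2 weeks and 1.04% at 16 weeks. Each contrast between weeks in gene-rich spots therefore includes this difference between the whole sections. At 2 weeks, 25 of the 40 spots with 3 or more GSTA5 UMIs had CHI3L1 (62.5%, 45.8 to 77.3), and at 16 weeks 3 of 311 (0.965%, 0.199 to 2.79). Their CHI3L1 levels were 6.41 (5.39 to 7.56) and 0.0369 (0.00762 to 0.108) per 10000. The 16-week spots were shallower, with a median of 2218 against 5118 UMIs, which the levels per 10000 UMIs take into account. In spots with 3 or more UMIs of CEBPA, CHI3L1 was present in 15 of 18 (83.3%) at 2 weeks and in 3 of 146 (2.05%) at 16 weeks. The counts for UVRAG were 17 of 21 (81.0%) and 4 of 277 (1.44%), for ADAM8 34 of 68 and 1 of 78, and for LPL 86 of 355 (24.2%) and 13 of 860 (1.51%). With 3 or more COL1A1 UMIs they were 59 of 245 (24.1%) and 0 of 66 (upper bound of the exact interval 5.44%). The highest 16-week share of the 15 genes was that of ACTA2, with 8 of 150 spots (5.33%) against 18 of 70 (25.7%) at 2 weeks. COL4A2 had 11 of 474 (2.32%) against 81 of 298 (27.2%), and MGST1 3 of 137 (2.19%) against 10 of 15 (66.7%). The choice of these genes rests on the 2-week section, so their 2-week shares are not independent of it.

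**Figure D5:**
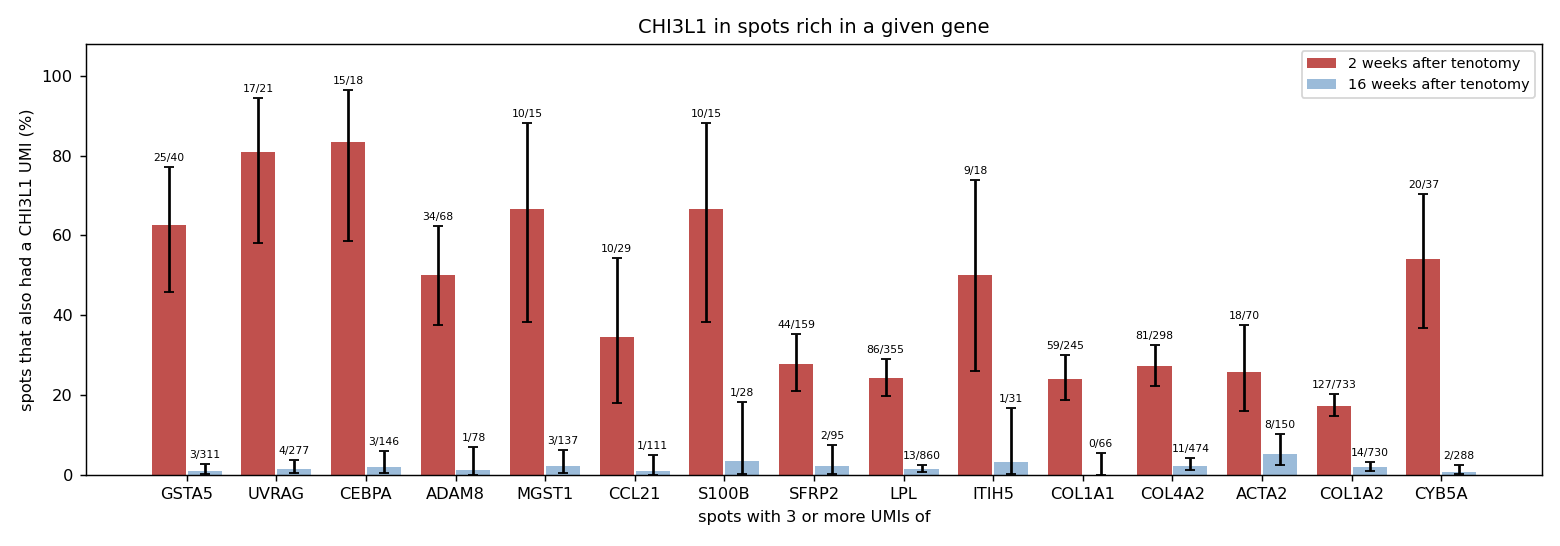
Share of spots with a CHI3L1 UMI (percent, bars) among spots with 3 or more UMIs of each gene on the x axis, 2 weeks and 16 weeks after tenotomy. Whiskers are exact binomial 95% intervals, and the numbers above are CHI3L1 spots of all such spots. The 15 genes are those named for the highest lower bounds at 2 weeks. The 2-week shares lay between 17.3% and 83.3%, and the 16-week shares at 5.33% or below. Over all spots of the 2 sections the shares were 15.5% and 1.04%.

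The 18 CHI3L1 spots at 16 weeks, compared with 1574 others by the same rule, gave a different order of genes. GSTA5 was level (log2 ratio 0.09, interval -0.56 to 0.62), as was MGST1 (0.04, -0.84 to 0.73). Of the 15 genes named for their excess at 2 weeks, ACTA2 had the largest 16-week ratio, at 1.87 (1.46 to 2.23), followed by COL4A2 (1.43, 1.12 to 1.71) and CEBPA (1.16, 0.59 to 1.64). UVRAG had 0.89 (0.40 to 1.31) and LPL 0.85 (0.57 to 1.10). ADAM8 had 0.35 (-0.67 to 1.10) and CCL21 -0.32 (-1.39 to 0.47). The 16-week interval lay below the 2-week value for GSTA5, MGST1, UVRAG, CEBPA, LPL, ADAM8, CCL21, CYB5A, SFRP2, S100B, COL1A1 and COL1A2. It lay above the 2-week value for ACTA2 and COL4A2 and included it for ITIH5. The 15 genes were ranked on their 2-week ratios, so lower ratios in another section cannot be told apart from that choice. The difference between the sections was not tested.

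CHI3L1 spots were unevenly placed. Capture areas carry the same printed barcodes, so 826 of the 854 barcodes of the 2-week section also occur in another section. Barcodes and positions are held in separate lists, but spots can be placed as groups by the sections that have tissue at their position. The 512 positions under tissue in all 4 sections held 101 of the 132 CHI3L1 spots (19.7% of the positions, interval 16.4 to 23.4) and 16 of the 20 spots with 3 or more UMIs. Of the 122 positions shared with both healthy sections but not with the 16-week section, 7 had CHI3L1 (5.74%, 2.34 to 11.5). The median depth of these groups was 4844 and 4186.5 UMIs. In the group of 32 positions shared with the 16-week and the fresh section, 5 spots held 29 CHI3L1 UMIs, or 2.01 per 10000, and 2 of these 5 had 3 or more UMIs.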

How the data were processed

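Visium 3′ libraries of 4 sections of rabbit supraspinatus muscle were analyzed. The deposited values are counts: the authors aligned the reads with Space Ranger 1.2.0 to OryCun2.0 with Ensembl annotation and counted UMIs per gene and spot, without normalization, for spots under tissue. Because UMIs merge duplicate reads, a count is a number of molecules. Coordinates were not used here, and gene names came from the count table. Of 9803 features without a symbol, 0 were named by the annotation table of mOryCun1.1.

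The groups of spots, the gene lists and the tests were chosen with earlier results of these data known. CHI3L1 was left out of the genes and totals. UMIs were summed over spots and divided by the totals, and genes needed 100 UMIs over both groups. With 1 section per condition there was no test. Ratios carry exact conditional, shares exact binomial (Clopper-Pearson) and sums exact Poisson 95% intervals, for counting error only. Named were, among genes with a symbol and UMIs in at least 10 CHI3L1 spots, the 15 with the highest lower bound and the 10 with the lowest upper bound of the ratio, and up to 4 members with most UMIs per list (others are named beside their counts). Spots with many GSTA5 UMIs and gene-rich spots in other sections were examined after seeing the data. Doublets were not called, because a spot is a region of tissue. The 2-week section had 4079313 UMIs and the others 4743522 to 12536450. Calculations used scipy 1.17.1 with numpy 2.4.6 and pandas 2.3.3 in Python 3.11.15, with plots by matplotlib 3.10.9. The code for the intervals was run on simulated Poisson sums, which follow the model that the intervals assume. That check cannot show how the intervals perform where UMIs of a gene cluster in single spots. Alternatives covered the number of CHI3L1 UMIs, depth, denominator, spot weights, single spots, COL1A1-rich spots and the minimum of UMIs per gene.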

Additional observations from a re-analysis of the deposited data

Results flagged for a closer look

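The named genes, some features without a gene name and some list members were checked in the other sections, not all genes compared. For 6 of those checked, the log2 ratio of CHI3L1 to other spots in another section pointed opposite to that at 2 weeks, with neither interval reaching 0. How many pointed the same way was not counted. The difference was not tested, and the other sections had 3 to 18 CHI3L1 spots. ADAM8 had -2.29 in the stored healthy section, from 1 UMI in CHI3L1 spots, against 2.06 at 2 weeks. ACTC1 had 0.98 in the stored healthy section, against -0.75. UBA2 had 1.59 there and -0.86 at 2 weeks. MYH7, the slow myosin heavy chain, had 0.54 in the stored healthy section and -0.16 at 2 weeks, within the fold both times. DNAJC21 had 2.03 at 16 weeks and -0.93 at 2 weeks. MYOC had 1.48 in the fresh healthy section, with 3 CHI3L1 spots, and -0.50 at 2 weeks. Only opposite directions were flagged, and other ratios in the healthy sections pointed the same way as at 2 weeks. In the fresh healthy section ADAM8 had 4.48 (3.05 to 5.44), from 7 UMIs in 1 CHI3L1 spot. GSTA5 had 4.99 (3.41 to 6.04) there from 6 UMIs, and CEBPA 4.68 (2.17 to 6.06) from 3. In the stored healthy section CEBPA had 3.28 (2.19 to 4.10) from 11 UMIs, and GSTA5 had 0 UMIs in CHI3L1 spots.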

How the results depend on the processing

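No paired analysis was possible because each condition had 1 section. The number of genes past the fold upward (236) was 539 for spots with 2 or more CHI3L1 UMIs, 422 after thinning, 82 and 59 without spots of 5 and of 3 or more COL1A1 UMIs, and 457 and 118 with a minimum of 50 and 200 UMIs per gene. Settings added after seeing the data gave 80 of 1790 genes for spots with exactly 1 CHI3L1 UMI. They gave 111 of 1804 without spots of 3 or more GSTA5 UMIs and 53 of 1557 without GSTA5-rich and COL1A1-rich spots. The number downward (38) was 130 for 2 or more CHI3L1 UMIs, 195 after thinning, 83 without each gene's top CHI3L1 spot, and 101 and 8 with 50 and 200 UMIs per gene. Without COL1A1-rich spots, a minimum of 50 and 200 UMIs gave 221 and 33 upward and 142 and 6 downward. With minimums of 50 and 200 UMIs, 2770 and 1185 genes were compared in place of 1905. After thinning the same 1905 genes were counted, with fewer UMIs each and so larger counting error.

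Without spots of 5 or more COL1A1 UMIs, 3 or more COL1A1 UMIs, with exactly 1 CHI3L1 UMI, without GSTA5-rich spots and without both kinds, the members past the fold were 2, 1, 0, 2 and 0 for the lipid-associated macrophage list (5) and 0, 0, 0, 3 and 0 for the fibroblast and collagen list (9). For the matrix proteases (3) they were 1 in each of these settings except without GSTA5-rich spots, and 5 for 2 or more CHI3L1 UMIs. Thinning moved the share of spots with CHI3L1 to 4.24%, 0.582% and 0.0426% at 2 weeks, 16 weeks and in stored healthy muscle. A direction is said to turn where the sign of the ratio changed, whether or not its interval included equal levels. Without spots of 5 or more COL1A1 UMIs, directions turned for STAB1 (-0.0744), CD74 (-0.49) and MYL4 (0.15). Without spots of 3 or more, they turned for ACTC1 (0.27), GRN (-0.0644), SERPING1 (-0.13), CD74 (-0.61) and MYL4 (0.59). Thinning turned TIMP1 (-0.0140) and CD74 (-0.10), exactly 1 CHI3L1 UMI turned GRN (-0.00058) and CD74 (-0.53), and leaving out GSTA5-rich spots turned CD36 (-0.25). Without both kinds of spots, directions turned for S100B (-0.0047), ACTC1 (0.10), STAB1 (-0.38), SNCG (-0.19), GRN (-0.18), SERPING1 (-0.81), CD74 (-0.75), CD36 (-0.21) and MYL4 (0.44). MYH8 turned for 2 or more CHI3L1 UMIs (-2.62) and without its top spot (-0.0736). The causes were not tested. Over the alternatives the log2 ratio ran from 1.18 to 3.84 for GSTA5, from 0.68 to 3.31 for ADAM8, from 0.61 to 3.49 for CEBPA and from 0.26 to 2.13 for LPL. GSTA5 had no value in the settings without GSTA5-rich spots, so its range covers fewer settings. The lowest values of CEBPA and LPL came from the setting without both kinds of spots. Leaving out the spot with most CHI3L1 UMIs moved 0 of 58 named ratios beyond their counting intervals.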
